A study of Mus musculus with 12 samples.

Results

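The cytosolic ribosomal protein genes encode the proteins of the large and small subunits of the ribosome that translates nuclear-encoded mRNA. They were picked by gene symbol (Rpl or Rps followed by a number, with the P stalk genes Rplp0, Rplp1 and Rplp2 and with Rpsa), leaving out the Rps6 kinases and 1 further symbol. Of 82 symbols that matched, 80 had an estimated count of at least 10 in at least 3 of the 12 libraries, out of 15986 genes in all. The genes kept were 43 of the large subunit, 30 of the small subunit, the 3 P stalk genes and 4 paralogs (Rpl3l, Rpl7l1, Rpl22l1 and Rps27l). Rpl3l was just inside the threshold, with at least 10 counts in 4 libraries, and Rpl39l and Rpl6l were outside it, with at most 4.0 and 3.4 counts in any library.

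Neutrophils were isolated from mouse bone marrow with antibody beads against Ly6G, a surface protein of mature neutrophils, and kept for 6 h in medium without phenol red. The 4 groups of 3 libraries were wild-type cells without stimulation, wild-type cells with 5 µM CpG-B (ODN 1826, an oligonucleotide that activates TLR9), Rab27a knockout cells without stimulation and knockout cells with 5 µM CpG-B. All animals carry the strain label C57BL/6. The unstimulated condition is called vehicle in one label and untreated in another, and the sources used here give neither the knockout allele nor the sex or age of the animals. Replicates are told apart by a number alone, so a p-value reflects the spread of these libraries, part of which may be technical.

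Each ribosome holds 1 copy of nearly every ribosomal protein, several acidic proteins of the P stalk being the known exception, and the genes are therefore transcribed at high and roughly matched rates in growing cells. Their mRNAs begin with a run of pyrimidines, the 5′ terminal oligopyrimidine or TOP motif, through which mTOR signalling controls how well they are translated. Ribosome content falls as neutrophils mature, and immature myeloid cells are richer in these mRNAs than mature neutrophils.

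Depth was 10928823 to 15513280 estimated counts a library. Rab27a, the gene targeted, was at 207 to 335 CPM (counts relative to library size, scaled by TMM) in the 6 wild-type libraries and at 94.9 to 129 CPM in the 6 knockout libraries, so no library went against its label. The 13 mature neutrophil markers summed to 79330 to 122000 CPM in every library, and none was at 0. Erythroid and B lineage markers were at levels that differed between knockout libraries. The 10 erythroid markers summed to 456, 1915 and 6293 CPM in unstimulated knockout libraries 1, 2 and 3 and to 540, 1747 and 6329 CPM with CpG, against 4114 to 5402 CPM in the 6 wild-type libraries. The 10 B lineage markers summed to 7.46, 31.7 and 99.5 CPM and to 8.20, 36.5 and 109 CPM in the same knockout libraries, against 30.7 to 46.0 CPM in wild-type. At most 2 markers of either list were at 0 in any library, Klf1 and Epor among the erythroid and Vpreb1 and Igll1 among the B lineage markers. As a sum, the 12 monocyte and macrophage markers did not follow this order. They summed to 572, 561.4 and 636.5 CPM in unstimulated knockout libraries 1, 2 and 3, and to 1668, 1472 and 1298 CPM with CpG. In wild-type they summed to 754.7 to 771.3 CPM without CpG and 1215 to 1276 CPM with it. Csf1r and Ly6c2 made up most of these sums. Taken singly, F13a1, Irf8, Ccr2, Ms4a6c and Cx3cr1 did rise from knockout library 1 to 2 to 3 in both conditions. F13a1 was at 11.5, 22.2 and 76.7 CPM without CpG and at 5.93, 10.9 and 44.7 CPM with it. Csf1r, Ly6c2, Adgre1, Klf4, C1qa, C1qb and Mrc1 did not keep that order in both conditions.

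Levels per length (TPM) spread widely among the 80 genes. In unstimulated wild-type cells the mean of 3 libraries ran from 1.12 to 2659 TPM, with a median of 375 TPM. The median was 350 TPM for the 43 large subunit genes and 479 TPM for the 30 small subunit genes. The 5 highest were Rps27 at 2659 ± 320 TPM (SD, n = 3), Rps9 at 1454 ± 63.6, Rps14 at 1077 ± 185, Rpl41 at 1056 ± 119 and Rps27a, which encodes a ubiquitin fusion protein, at 990 ± 109 TPM. Apart from Rps27 and Rps9, these neighbours in the order lay within 1 SD of each other.

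The 5 lowest were the muscle-type paralog Rpl3l at 1.12 ± 0.398 TPM, Rps15a at 19.5 ± 5.15, Rpl22 at 22.4 ± 4.96, the paralog Rpl7l1 at 23.7 ± 1.05 and Rps20 at 27.8 ± 8.18 TPM. Except for Rpl3l, these were genes whose listed transcripts had long effective lengths, the number of positions at which a fragment can start: 4883 bases for Rps15a, 3194 for Rps20, 2354 for Rpl7l1 and 1951 for Rpl22, against a median of 474 bases over the 80 genes. Rps15a, Rps20 and Rpl7l1 each have 1 listed transcript. Rps15a had 72.8, 90.2 and 57.2 CPM in the 3 unstimulated wild-type libraries before division by that length. Whether the listed transcript is the one these cells make was not tested. Length also bears on the top of the order. Rps27 had an effective length of 96 bases and 181 ± 52.9 CPM in unstimulated wild-type cells, below Rps9 at 495 ± 30.05 CPM. Ribosomal protein genes have many processed pseudogenes of near-identical sequence, and how reads were shared among such copies is set by the authors' quantification.

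Pyrimidine runs were more frequent near the annotated starts of these genes than among all genes. Whether such a run begins the mRNA, as a TOP motif does, was not tested. A promoter of 250 bases before to 50 bases after the annotated start was in the RefSeq table (build GRCm38.p6) for 60 of the 80 genes. A run of at least 8 pyrimidines (C or T, on the transcribed sense strand) lay within 50 bases of the start in 51 of these 60 genes (85%), against 39.3% of 27025 genes with a promoter in the table. CCGGAAG, the core of the sites bound by ETS factors such as GABP, was present on either strand in 41.7% of the 60 genes and in 9.9% of all genes. AAGATGGC, the core of the YY1 motif, was present in 10% and 3.2%, GGGCGG, the GC box, in 61.7% and 38.2%, and TATAAA, the TATA box, in 11.7% and 15.7%. These 4 motifs were searched on both strands over the whole 300 bases, and none of them contains another. The 27025 genes were not limited to those expressed in these cells. A comparison with expressed genes alone was not made.

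The promoters of 6 genes are printed here, from 50 bases before to 20 bases after the annotated start, because the results turn on them or compare with them. Rps9 and Rps25 differed between genotypes, and Rpl4 and Rpsa lie on the same chromosome as Rps25 and were not called. Rps27 had the highest TPM, and Rps6 encodes the small subunit protein phosphorylated by the S6 kinases. Capitals mark the longest pyrimidine run of each.
Rps9, chr7:3703991-3704060, + strand: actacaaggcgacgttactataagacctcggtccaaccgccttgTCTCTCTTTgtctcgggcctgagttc
Rps25, chr9:44407664-44407733, + strand: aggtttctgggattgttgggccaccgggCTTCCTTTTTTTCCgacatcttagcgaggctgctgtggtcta
Rpl4, chr9:64173337-64173406, + strand: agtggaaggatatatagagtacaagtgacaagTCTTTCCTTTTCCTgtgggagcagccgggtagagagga
Rpsa, chr9:120127716-120127785, + strand: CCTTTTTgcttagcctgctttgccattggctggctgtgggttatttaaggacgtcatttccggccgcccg
Rps27, chr3:90213629-90213698, - strand: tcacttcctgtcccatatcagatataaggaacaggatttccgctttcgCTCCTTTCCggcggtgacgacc
Rps6, chr4:86857348-86857417, - strand: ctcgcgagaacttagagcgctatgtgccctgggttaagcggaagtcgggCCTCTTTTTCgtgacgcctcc
The runs were 9 bases in Rps9 and Rps27, 10 in Rps6 and 14 in Rps25 and Rpl4. In Rps6 and Rps27 the run began 1 and 2 bases before the annotated start, and in Rps25 and Rpl4 it began 22 and 18 bases before it. Rpsa had no run of 8 bases in its printed stretch, its longest being 7 bases. Annotated starts need not be the starts used in neutrophils.

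The 80 genes together held a small share of each library, and in 3 of the 4 groups that share varied widely between replicates. In unstimulated wild-type cells they held 1.2, 1.36 and 0.936% of estimated counts in libraries 1, 2 and 3 (1.17 ± 0.216%, SD, n = 3), and with CpG 1.16, 1.25 and 1.14% (1.18 ± 0.0592%). In unstimulated knockout cells they held 0.887, 1.05 and 1.27% (1.07 ± 0.190%), and with CpG 0.940, 0.747 and 1.27% (0.987 ± 0.266%). All 4 groups overlapped. In bulk RNA, fewer cells of a type and less of these mRNAs per cell cannot be told apart. Counted per length, the share was 3.57 ± 0.527% of TPM in unstimulated wild-type cells, 3.62 ± 0.257% with CpG, 3.51 ± 0.543% in unstimulated knockout cells and 3.40 ± 0.525% with CpG.

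**Figure D1:**
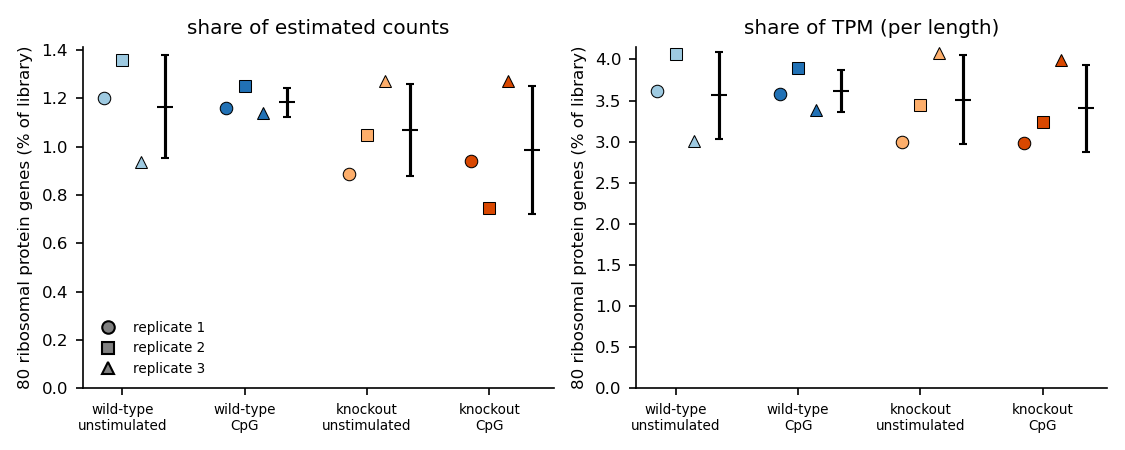
Share of each library held by the 80 ribosomal protein genes, as percent of estimated counts (left) and of TPM (right), with 1 symbol per library, coloured by group and shaped by replicate number, and the mean and SD of 3 libraries beside them. Over all 12 libraries the share of counts runs from 0.747 to 1.36%, and the wild-type CpG libraries lie closest together, from 1.14 to 1.25%.

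In 3 of the 4 groups most of the genes were high or low together within a library. In unstimulated wild-type cells, library 3 had the lowest CPM for 79 of the 80 genes and library 2 the highest for 72. In unstimulated knockout cells, library 1 was lowest for 73 genes and library 3 highest for 64. With CpG, knockout library 2 was lowest for 70 genes and library 3 highest for 68, while on the TPM scale library 1 was lowest for 46 and library 2 for 33. Wild-type libraries with CpG were less uniform in CPM, library 1 being lowest for 46 genes, library 3 for 24 and library 2 for 10, and library 2 highest for 56. Knockout library 3 was above knockout library 1 for 76 of the 80 genes without CpG (median log2 ratio 0.37) and for 68 with CpG (median 0.27). The gap was widest for Rpl10a, a large subunit protein, at 23.1 CPM in library 1, 35.6 in library 2 and 63.2 in library 3 without CpG and at 25.5, 25.8 and 65.4 CPM with it. The erythroid and B lineage sums given above were likewise lowest in knockout library 1 and highest in library 3. So was Mpo, a granule enzyme of promyelocytes, at 17.4, 68.9 and 223 CPM without CpG and 18.3, 60.9 and 154 CPM with it. The sum of 9 immature neutrophil and promyelocyte markers, most of it Chil3, differed less. It was 2406, 2715 and 2984 CPM without CpG and 2926, 2029 and 2988 CPM with it. With CpG, Cebpe and Chil3 were lower in library 3 than in library 1, and the other markers of that list were higher. The part of erythroid, B lineage and immature cells in the level of the ribosomal protein genes was not tested.

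Fragment size moved with 2 of these libraries. Effective lengths, worked out from the deposited counts and FPKM, were shorter by 118.4 bases in knockout library 2 with CpG and by 45.2 bases in unstimulated wild-type library 3 than in unstimulated wild-type library 1, and within 6.2 bases of it in the others. In RSEM a shorter effective length goes with longer fragments. The 35 ribosomal protein genes with an effective length under 400 bases were lower in knockout library 2 than in the mean of the other knockout libraries with CpG, by a median of -0.92 on the log2 scale, against -0.52 for the 45 longer ones. In wild-type library 3 the medians were -0.54 and -0.39. Across the 80 genes this difference correlated with effective length in both libraries (Spearman's rho 0.45 in each), as a description over genes that share a library. On the TPM scale, which divides by effective length, the medians in knockout library 2 were -0.15 and -0.27, and rho was -0.24. In wild-type library 3 they were -0.35 and -0.42 with a rho of -0.08, and that library was still the lowest of its group for 78 of the 80 genes.

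**Figure D2:**
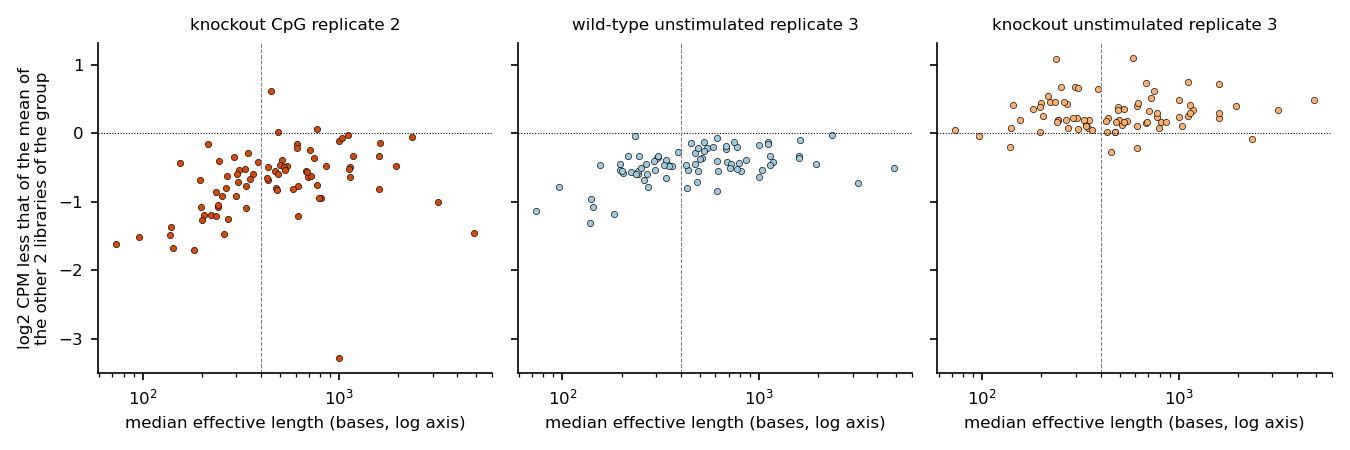
Difference in log2 CPM between 1 library and the mean of the other 2 of its group (vertical axis) against median effective length in bases (log axis) for the 80 genes, in the libraries of shortest effective length (left, centre) and in a knockout library of ordinary length (right), with the dashed line at 400 bases. Short genes lie lowest in the first 2 panels, and nearly all genes lie above 0 in the third.

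With all 12 libraries and no replicate block, CpG changed none of these genes past the threshold in either genotype. In wild-type cells, 0 of 80 rose and 0 fell at an adjusted p of at most 0.05 (quasi-likelihood test in edgeR, Benjamini-Hochberg over the 10802 genes tested), where 4.74% of all genes tested rose and 1.3% fell. DESeq2 also called 0, and 0 of the 80 had an unadjusted p under 0.05 in edgeR. The median log2 fold change was 0.07 for the 80 genes and -0.01 for all genes tested, with a median standard error of 0.20 for a single ribosomal protein gene. Leaving out each library in turn moved the members' median from -0.10, without unstimulated wild-type library 3, to 0.16, without library 2. The highest estimate was 0.40, for Rpl3l. Rpl3l was at about 1 CPM in all of these libraries, which leaves its estimate with a standard error of 0.71.

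In knockout cells edgeR and DESeq2 again called 0 of 80 genes for CpG, where by edgeR 7.57% of all genes rose and 4.06% fell. The median was -0.06, against -0.01 for all genes, and ran from -0.28 without knockout CpG library 3 to 0.13 without knockout CpG library 2. A single gene had an unadjusted p under 0.05, Rps9, whose product sits at the mRNA entry side of the small subunit. Rps9 was at 274, 256 and 219 CPM without CpG and at 325, 439 and 245 CPM with it, a log2 difference of 0.43 ± 0.17 (SE, adjusted p = 0.144). The overlap is that of CpG library 3 with the unstimulated libraries. Without knockout CpG library 3 the difference was 0.60 (adjusted p = 0.0114). Rps9 also passed the threshold with genotype and replicate number together as a block. The lowest estimate was that of Rps28, a small subunit protein of short mRNA, at 37.8, 49.0 and 58.0 CPM without CpG and at 45.6, 16.0 and 57.4 CPM with it (-0.29 ± 0.37, adjusted p = 0.737). The low value is that of library 2, the one with the longest fragments.

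The calls came from the genotype comparisons. Between unstimulated knockout and wild-type cells, 3 of the 80 genes were lower (Rps9, Rplp1 and Rpl29) and 0 higher, where 2.64% of all genes tested were lower and 2.11% higher. With CpG, 3 were lower (Rps25, Rpl29 and Rplp1) and 0 higher, against a background of 2.21% lower and 1.7% higher. The share of members called lower is therefore close to that of all genes. The medians of the 80 genes were -0.08 without CpG and -0.22 with it, with 63 and 73 of the 80 estimates below 0, where the medians of all genes tested were -0.01 and 0.00. Both medians turned direction when single libraries were left out. That without CpG ran from -0.20 without wild-type library 3 to 0.08 without wild-type library 2, and was 0.03 without knockout library 1. That with CpG was 0.03 without knockout CpG library 2, -0.39 without knockout CpG library 3, 0.00 without both libraries of shortest effective length, and -0.07 with effective length as an offset. The genotype comparisons share no library, though same-numbered libraries may come from the same animal.

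**Figure D3:**
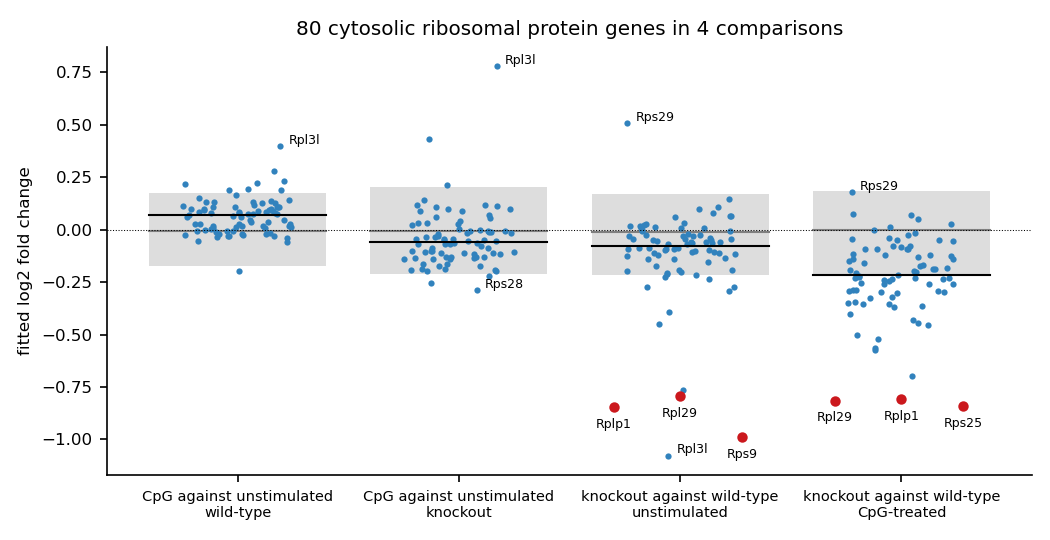
Fitted log2 fold change of each of the 80 genes in 4 comparisons, with genes past an adjusted p of 0.05 in red and the others in blue, the black line at their median, and the grey band and line at the quartiles and median of all 10802 genes. No gene is red in the CpG comparisons and 3 are red, all below 0, in each genotype comparison.

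Rpl29, a large subunit protein at the surface of the ribosome, was lower in every knockout library. It was at 139, 159 and 136 CPM in unstimulated wild-type libraries and at 81.0, 79.3 and 89.5 CPM in unstimulated knockout libraries. With CpG it was at 137, 158 and 152 CPM in wild-type and at 96.3, 67.0 and 91.4 CPM in knockout. The genotypes did not overlap in either condition. The log2 difference was -0.79 ± 0.13 without CpG (1.73-fold lower, adjusted p = 0.00258) and -0.82 ± 0.13 with it (1.76-fold lower, adjusted p = 0.00228). The call held without each of the 12 libraries in turn, with adjusted p at most 0.0247 and 0.0181.

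Rplp1, which encodes the acidic P1 protein of the stalk that recruits elongation factors, was at 58.9, 62.3 and 47.8 CPM in unstimulated wild-type libraries and at 23.6, 30.7 and 39.5 CPM in knockout. With CpG it was at 60.4, 55.1 and 63.0 CPM in wild-type and at 29.6, 31.6 and 40.8 CPM in knockout. The genotypes did not overlap. The differences were -0.85 ± 0.18 (1.80-fold lower, adjusted p = 0.0127) and -0.81 ± 0.18 (1.75-fold lower, adjusted p = 0.0187). The call without CpG was lost without wild-type library 1 or 2 or knockout library 1 or 2, with adjusted p up to 0.0752, and that with CpG without wild-type library 1 or 3 or knockout library 1 or 2, with adjusted p up to 0.111. Its effective length was 216 bases, and with effective length as an offset the difference with CpG was -0.48 (adjusted p = 0.238). With curated transcripts alone that with CpG had an adjusted p of 0.0689.

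Rps25, a small subunit protein with a part in internal initiation of translation, was at 163, 185 and 100 CPM in unstimulated wild-type libraries and at 84.1, 91.2 and 88.5 CPM in knockout (-0.76 ± 0.21, adjusted p = 0.0558). With CpG it was at 160, 174 and 158 CPM in wild-type and at 111, 65.3 and 97.4 CPM in knockout (-0.84 ± 0.21, adjusted p = 0.0395). The genotypes did not overlap in either condition, and the nearest wild-type value is that of library 3, one of the libraries of longer fragments. Without that library the unstimulated difference was -0.97 (adjusted p = 0.00764). The unstimulated difference also passed the threshold without knockout CpG library 1 or 2 (adjusted p = 0.0409 and 0.0311), with DESeq2 (0.0112), with no filter on low counts (0.0167), with effective length as an offset (0.0156) and without both libraries of shortest effective length (-0.98, adjusted p = 0.000291). The call with CpG was lost in 8 of the 12 fits that leave out 1 library, namely wild-type CpG library 1, 2 or 3, knockout CpG library 2 or 3, unstimulated wild-type library 1 and unstimulated knockout library 1 or 2, with adjusted p up to 0.164. With the replicate number as a block its adjusted p was 0.0516, and with curated transcripts alone 0.0991. That block joins wild-type and knockout libraries of the same number, whose residuals correlated at only -0.14 to 0.03.

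Rps9 was at 523, 500 and 463 CPM in unstimulated wild-type libraries and at 274, 256 and 219 CPM in knockout, about 1.99-fold lower (-0.99 ± 0.17, adjusted p = 0.0035), a call that held without each library in turn. With CpG it was at 513, 460 and 528 CPM in wild-type and at 325, 439 and 245 CPM in knockout (-0.57 ± 0.17, adjusted p = 0.0895). The genotypes did not overlap in either condition, but knockout CpG library 2 lay near wild-type. Without that library the difference with CpG was -0.79 (adjusted p = 0.00717). On the TPM scale knockout CpG library 2 was at 1627 TPM, above the wild-type means of 1454 and 1436 TPM, while the other knockout libraries with CpG were at 852 and 748 TPM.

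**Figure D4:**
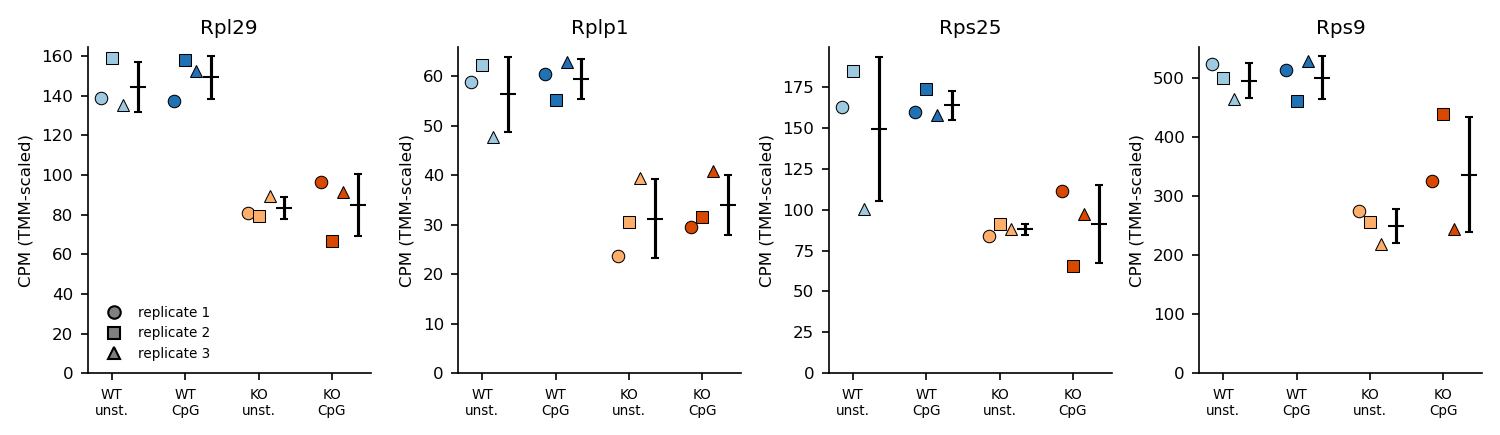
TMM-scaled CPM of Rpl29, Rplp1, Rps25 and Rps9 in each library (symbols by replicate number, colours by group) with the mean and SD of 3 libraries. Each knockout value lies below each wild-type value of the same condition, and the Rps9 value of knockout CpG replicate 2, at 439 CPM, lies nearest to wild-type.

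For Rpl29 the files also separate transcripts. This gene was looked at by transcript after its values were seen. The RefSeq transcript NM_009082 had estimated counts of 143, 225 and 183 in unstimulated wild-type libraries and 169, 228 and 222 with CpG, and a count of 0 in all 6 knockout libraries. With a floor of 3 counts in each knockout library, that is at least 63.4-fold lower relative to library totals. It made up 8.80 to 12.6% of the Rpl29 count in wild-type. The main transcript, NM_001324533, was at 132 ± 14.4 CPM in unstimulated wild-type cells and 84.8 ± 11.2 in knockout, and at 133 ± 9.59 and 81.3 ± 16.8 with CpG (SD, n = 3, scaled to library totals). Both transcripts were thus lower in knockout in the estimated counts. The part of each in the difference in Rpl29 depends on how the quantification divided shared reads, and was not tested. NM_009082 was longer by 63 bases of effective length in each wild-type library. The 80 genes have 143 listed transcripts, and NM_009082 was the 1 transcript with at least 20 counts in every library of one genotype and at most 3 in every library of the other. An estimate of exactly 0 means that the quantification gave no read to that transcript, and why was not tested.

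**Figure D5:**
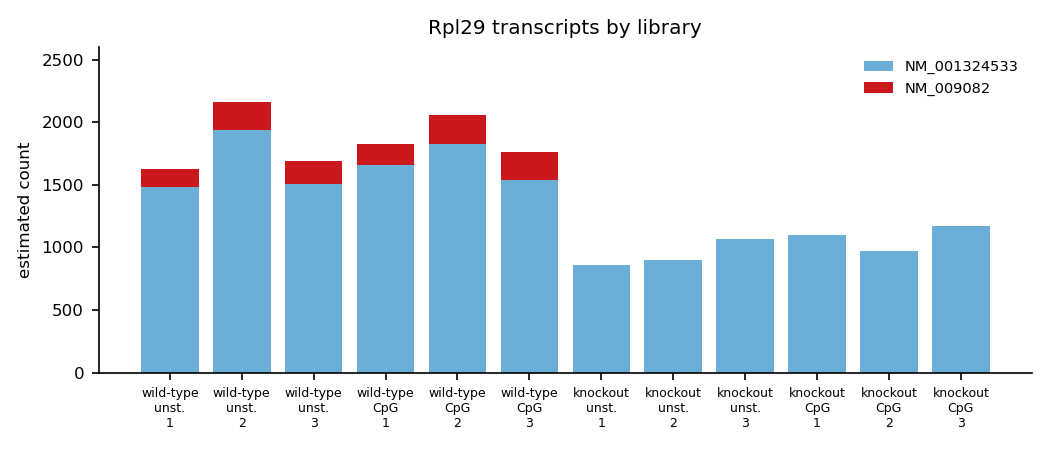
Estimated counts of the 2 main Rpl29 transcripts, stacked, in each of the 12 libraries. NM_009082 adds 143 to 228 counts in the wild-type libraries and 0 in the knockout libraries, where NM_001324533 also has fewer counts.

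The 4 genes share chromosomes with Rab27a or with many other genes that differed. Rab27a is on chromosome 9, and 7 of the 80 genes are there too, in the order Rps25, Rplp1, Rpl4, Rps27l, Rab27a, Rpl29, Rpsa and Rpl14 in GRCm38.p6. Of these 7, Rplp1 and Rpl29 were called without CpG and Rps25, Rplp1 and Rpl29 with it. Rpl4, Rpsa and Rpl14, proteins of the large and small subunits, differed by 0.01, -0.20 and -0.03 without CpG, with adjusted p of 0.984, 0.719 and 0.978. Rps27l, also not called, was at 11.2 ± 2.3 CPM in wild-type and 7.8 ± 4.2 CPM in knockout with CpG. The median of the 7 was -0.20 without CpG and -0.52 with it. For the 60 members outside chromosomes 7 and 9 it was -0.07 and -0.21. Rps9 is on chromosome 7, with 12 other members that were not called. Of the 60 genes on other chromosomes, 0 were called in either comparison. Among all genes tested, 10.4% on chromosome 9 and 11.1% on chromosome 7 differed between genotypes without CpG, in either direction, against 0.625 to 8.13% on the 18 other chromosomes. With CpG the shares were 8.22% and 9.69%, against 0.823 to 8.13%. The chromosomes were looked at after the calls were seen, and the shares are a description.

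Hbb-bt, a beta-globin gene on chromosome 7, was at 308 to 453 CPM in the 6 wild-type libraries and at 0.6 to 7.0 CPM in the 6 knockout libraries. Its neighbour Hbb-bs was at 1521 to 2141 CPM in wild-type. In knockout libraries 1, 2 and 3 Hbb-bs was at 136, 571 and 1864 CPM without CpG and at 171, 587.5 and 2027 CPM with it. These are the adult beta-globin genes of the haplotype that C57BL/6 mice carry. Whether DNA of another strain lies around Rab27a, Rps9 or Hbb-bt in the knockout animals was not tested.

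The other P stalk genes were not called. Rplp0, the scaffold of the stalk, was at 304, 350 and 300 CPM in unstimulated wild-type libraries and at 247, 316 and 336 CPM in knockout (-0.09 ± 0.12, adjusted p = 0.799), and with CpG the difference was -0.08 ± 0.12. Rplp2, the partner of P1 in the stalk dimer, was at 94.4, 110 and 68.6 CPM and at 71.8, 96.4 and 99.8 CPM (-0.03 ± 0.27, adjusted p = 0.98), and with CpG the difference was -0.23 ± 0.27. Their groups overlap. The difference between Rplp1 and its partners was not tested.

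None of the 4 paralogs was called. Rpl22l1, the paralog of Rpl22, was at 13, 12.9 and 12.6 CPM in unstimulated wild-type libraries and at 8.1, 9.2 and 12 CPM in knockout, with no overlap (-0.39 ± 0.24, adjusted p = 0.46). With CpG it was at 13.7, 14.2 and 14.2 CPM and at 8.3, 6.2 and 14.1 CPM, which overlap (-0.56 ± 0.24, adjusted p = 0.237). Knockout CpG library 3 made that overlap, and without it the difference was -0.94 (adjusted p = 0.0159). Rps27l, a p53 target, was at 9.25 ± 2.50 CPM in unstimulated wild-type and 8.07 ± 1.70 in knockout. Rpl7l1, the paralog of Rpl7, was at 43.2 ± 0.359 CPM and 45.6 ± 1.42 CPM. Rpl3l had the lowest estimate of all 80 genes without CpG, -1.08 ± 0.82, from 0.697 ± 0.288 CPM in wild-type and 0.320 ± 0.118 CPM in knockout (adjusted p = 0.567).

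Rps29, a short zinc-binding small subunit protein, had the highest estimate in both genotype comparisons. It was at 60.2, 65.1 and 25.2 CPM in unstimulated wild-type libraries and at 75.1, 74.1 and 65.1 CPM in knockout (0.51 ± 0.35, adjusted p = 0.513). With CpG it was at 60.7, 55.3 and 55.8 CPM in wild-type and at 81.6, 29.4 and 83.8 CPM in knockout (0.18 ± 0.35, adjusted p = 0.841). The low values are those of the 2 libraries of longest fragments. Without those 2 libraries the difference with CpG was 0.53 (adjusted p = 0.0166). Rpl26, which binds p53 mRNA, was at 142, 159 and 113 CPM and at 84.6, 108 and 112 CPM without CpG, with no overlap (-0.45 ± 0.15, adjusted p = 0.123), and at 140, 160 and 140 CPM and 108, 87.7 and 116 CPM with it (-0.50 ± 0.15, adjusted p = 0.0896).

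Genes with known roles beyond the ribosome were not called in any comparison. Rpl5 and Rpl11, which with 5S rRNA inhibit Mdm2 when ribosome assembly fails, were at 161 ± 37.3 and 149 ± 29.8 CPM in unstimulated wild-type and at 165 ± 34.4 and 130 ± 17.0 CPM in knockout. Rps6 was at 252 ± 38.8 CPM and 241 ± 37.4 CPM, Rpsa, also known as a laminin receptor, at 179 ± 18.2 and 155 ± 52.9 CPM, and Rps27a at 356 ± 42.0 and 312 ± 12.9 CPM. Rps19, the gene most often mutated in Diamond-Blackfan anaemia, was at 72.6 ± 9.49 and 62.7 ± 18.5 CPM. Rpl13a, which takes part in silencing of inflammatory mRNAs in myeloid cells, was at 161 ± 14.9 and 133 ± 16.6 CPM. Of the 22 Diamond-Blackfan anaemia genes, 21 of them members, 0 were called in any comparison, with medians of 0.09 and -0.10 for CpG in wild-type and knockout cells and of -0.11 and -0.29 for genotype without and with CpG.

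The interaction of genotype and CpG called 0 of the 80 genes and 0 of all 10802 (0.0%), with 0 of the 80 and 365 of all genes at an unadjusted p under 0.05. DESeq2 called 0 of the 80 as well. The estimates ran from -0.48 ± 0.52 for Rps28 to 0.42 ± 0.24 for Rps9, and the median was -0.11, against 0.01 for all genes. That median ran from -0.29 without knockout CpG library 3 to 0.08 without knockout CpG library 2, and was 0.03 without unstimulated wild-type library 3.

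Lists of genes that make or work with the ribosome were counted in the same way, beside the same shares of all genes tested. For CpG these were 4.74% higher and 1.3% lower in wild-type cells and 7.57% and 4.06% in knockout cells. For knockout against wild-type they were 2.11% higher and 2.64% lower without CpG and 1.7% and 2.21% with it. Of the 6 genes of ribosomal fusion or associated proteins outside the symbol rule (Fau, Rack1 and others), 0 were called in any comparison. Fau, which encodes a ubiquitin-like protein fused to a small subunit protein, was at 451, 522 and 356 CPM in unstimulated wild-type libraries and at 450, 523 and 427 CPM in knockout. Of 19 tested genes of elongation factors and other TOP mRNAs, 0 were called for CpG and 1 was lower in knockout in both conditions. That was Eif3k, a subunit of initiation factor eIF3 on chromosome 7, at 60.7 ± 3.22 and 43.2 ± 6.4 CPM without CpG (-0.49 ± 0.12, adjusted p = 0.0283).

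Of 25 translation initiation factors, CpG raised Eif5a in wild-type cells, from 150 ± 16.2 to 200 ± 9.9 CPM (0.41 ± 0.10, adjusted p = 0.024), and Eif5a and Eif6 in knockout cells, by 0.53 ± 0.10 and 0.57 ± 0.17 (adjusted p = 0.00302 and 0.0422). Eif5a helps ribosomes through difficult peptide bonds and Eif6 keeps the subunits apart until the large one is mature. None of the 25 differed between genotypes. Of 50 ribosome biogenesis genes, 0 were called for CpG in wild-type cells, with a median of 0.25, and in knockout cells 2 rose (Rrs1 by 1.25 ± 0.34 and Tsr1 by 1.47 ± 0.41) and 1 fell (Gnl2 by -0.36 ± 0.11), with a median of 0.15. In the list of 6 tested genes of the 5S particle and p53 surveillance, Rrs1 was again the 1 called gene, for CpG in knockout cells, and 0 were called in the other comparisons.

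Of 24 genes of mTOR signalling to TOP mRNAs, Rps6kb1, the S6 kinase gene, rose with CpG in both genotypes. It went from 24.0, 21.7 and 23.1 CPM to 28.4, 31.9 and 30.5 CPM in wild-type cells (0.40 ± 0.09, adjusted p = 0.0199) and from 26.1, 25.4 and 26.3 CPM to 37.1, 38.5 and 37.9 CPM in knockout cells (0.55 ± 0.09, adjusted p = 0.0014), with no overlap in either. In knockout cells Rragd and Rptor, a Rag GTPase and a subunit of mTORC1, fell by 0.53 and 0.51. Between genotypes Lamtor1, a chromosome 7 gene for the lysosomal anchor of that complex, was lower in both conditions (-0.56 ± 0.12 and -0.47 ± 0.12), and Rragd was higher without CpG (0.57 ± 0.12).

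The 78 mitochondrial ribosomal protein genes, whose products translate the mitochondrial genome, were the nearest set to compare with. For CpG, 1 rose and 1 fell in wild-type cells, and 1 rose and 2 fell in knockout cells. Mrpl4 rose in both, by 0.54 ± 0.14 and 0.99 ± 0.14. Between genotypes 4 of the 78 were lower without CpG and 5 with it, where 2.64% and 2.21% of all genes tested were lower, and 0 were higher. Mrpl34, on chromosome 8, was at 7.5 ± 0.8 CPM in unstimulated wild-type and 1.3 ± 0.5 CPM in knockout (-2.52 ± 0.28), and Mrpl48, on chromosome 7, at 27.1 ± 0.6 and 10.9 ± 1.0 CPM (-1.32 ± 0.11). The medians of the 78 were -0.20 without CpG and -0.28 with it, beside -0.08 and -0.22 for the cytosolic set. Differences between the sets were not tested.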

How the data were processed

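PolyA RNA of 12 libraries was sequenced on a HiSeq instrument, per the labels. Estimated counts (RSEM expected counts), TPM and FPKM per RefSeq transcript were made and deposited by the authors. The submitters' processing notes name Bowtie2, RSEM 1.2.28 and build GRCm39. Deposited FPKM served only to work out effective lengths. Here counts were summed per gene and rounded. Gene symbols, order and promoters came from RefSeq GRCm38.p6, where 103 of 15986 genes, with at most 0.101% of counts, had no symbol.

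All 80 members were among 10802 genes kept by filterByExpr. The 12 libraries were fitted in edgeR 4.0.16 (R 4.3.3) with TMM scaling and 1 mean per group, tested on simulated data beforehand. In each of 5 comparisons p-values took the Benjamini-Hochberg adjustment over all genes tested. Named genes were every called member, each comparison's highest and lowest estimate, the 5 highest and 5 lowest by TPM, P stalk genes, paralogs, 7 genes of known other roles and up to 3 called genes of each other list. A gene that this rule picks is not reported here. The members, lists and tests were chosen with earlier results of these data known.

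Wild-type libraries of the same number had residual correlations of 0.28, 0.41 and 0.44, which pairs them at a threshold of 0.1. Those of knockout libraries correlated at 0.62, 0.09 and 0.68, which does not. Alternatives were other scalings and filters, a robust fit, DESeq2 1.42.0, blocks, curated transcripts and leaving out each library. Effective length offsets and fits without the libraries of shortest effective length or without both knockout libraries numbered 3 were added after seeing the data.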

Additional observations from a re-analysis of the deposited data

How the results depend on the processing

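Of the 5 counts of called members, those for CpG in wild-type cells (0) and for the interaction (0) held under each alternative run. For CpG in knockout cells the count went from 0 to 1 (Rps9) with genotype and replicate number together as a replicate block and without both knockout libraries numbered 3, and ranged from 0 to 1 on leaving out each library. The labels give knockout libraries only a number. Those numbered 1 and 3 correlated at 0.62 and 0.68, and those numbered 2, which include the library of longest fragments, at 0.09. The erythroid and B lineage sums of knockout libraries ran in the same order by number in both conditions. Whether same-numbered libraries share an animal was not tested. For unstimulated knockout against wild-type it went from 3 to 5 without the libraries of shortest effective length (Rpl26 and Rps25 added) and ranged from 2 to 4 on leaving out each library. Its count without both knockout libraries numbered 3 included Rps2 (-0.40, adjusted p = 0.0438, against -0.17 and 0.716 with all libraries). For CpG-treated knockout against wild-type it went from 3 to 5 with DESeq2 (Rpl26 and Rps9 added), to 1 with curated transcripts alone (Rpl29) and to 7 without both knockout libraries numbered 3 (Rpl29 and Rplp1 with Rpl10a, Rpl22l1, Rpl3, Rps19 and Rps2), and ranged from 1 to 3 on leaving out each library, 1 without wild-type CpG library 1 or 3. Without the libraries of shortest effective length, the calls of that comparison included Rps29, which was higher in knockout. Rpl29 stayed called in both conditions under each alternative. With replicate number as a block, the count for CpG-treated knockout against wild-type was 2, Rps25 being lost (adjusted p = 0.0516). With either block the count for CpG in wild-type cells stayed at 0. The median for the interaction moved from -0.11 to 0.21 without the libraries of shortest effective length. The cause of these shifts was not tested beyond what each alternative leaves out. Fits of the libraries compared alone were not run for the interaction, which needs all of them. The depth of 10928823 to 15513280 counts leaves Rpl3l, at about 1 CPM, without a usable estimate.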
